A study of Mus musculus with 6 samples.

Results

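The expression of 47 cell cycle and DNA replication genes was examined in bulk RNA sequencing of mouse liver, among the 24411 gene symbols of the deposited count tables. The genes were taken by symbol from a list of well-known S-phase, mitotic and cyclin genes and not by their values, though earlier results of these data were known. They comprise 18 genes of DNA replication and nucleotide supply, 24 genes of G2 and mitosis, and 5 cyclins and E2F factors that act at the entry into S phase. All 47 were present and all 47 passed the filter on low counts, which kept 13563 genes. The livers came from 3 Cyr61 KO libraries and 3 Control libraries, and the question was whether proliferation transcripts differed in Cyr61 KO livers. Every animal was male, 24 weeks of age and of the strain Cyr61fl/fl, in which the Cyr61 gene is flanked by recombination sites, and each had been on a NASH diet, one that brings on non-alcoholic steatohepatitis, over 12 weeks. The labels do not say which Cre, promoter or cell type removed the gene, nor that each library is a separate mouse, so the p-values below speak only to how these libraries vary. Cyr61, also called Ccn1, encodes a secreted matricellular protein.

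A cell commits to division in G1, when D and E cyclins activate kinases that release E2F factors, which switch on the genes of DNA replication. During S phase the MCM helicase opens the origins, and the clamp PCNA and DNA ligase I complete the copied strands. In G2 a second programme, with CDK1, its B cyclins and the spindle and kinetochore proteins, prepares mitosis. Hepatocytes of an adult liver are mostly quiescent and often polyploid, and they can re-enter the cycle after injury. In a steatohepatitic liver macrophages, lymphocytes, stellate cells and bile duct cells can also proliferate. In bulk tissue, fewer cells of a type and less RNA per cell cannot be told apart.

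Expression is given in CPM, a gene's reads as a share of the library after the trimmed mean (TMM) scaling of edgeR. Each fold change is the log2 ratio of Cyr61 KO to Control, followed by its standard error. The libraries held 31133292 to 40377742 gene counts for Cyr61 KO and 21032878 to 34827903 for Control. Cyr61, the targeted gene, had 3.77, 2.66 and 3.14 CPM in Cyr61 KO replicates 1, 2 and 3, against 15.6, 32.4 and 27.8 CPM in Control replicates 1, 2 and 3 (log2 fold change -2.98 ± 0.32, edgeR adjusted p = 0.0103). Control replicate 2 stood apart: 50.9% of its reads lay in genes, and the 5 remaining libraries had 82.8% to 87.6%. Alb, the albumin gene of hepatocytes, was at 77118 to 90103 CPM in Cyr61 KO and at 66677, 23799 and 66177 CPM in Control replicates 1, 2 and 3. Member counts ran from 2 reads, for Melk in Cyr61 KO replicate 2, to 6546 reads, for Ccnd1 in Control replicate 3.

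The promoters of these genes carried certain sequence features in shares that differed by process. Of the members, 15 replication, 19 mitosis and 3 G1/S genes had a promoter in the RefSeq table for GRCm38.p6, a window of 250 bases before to 50 bases after the transcription start. Such windows were searched on both strands for the cell cycle homology region (CHR, TTTGAA), through which the DREAM and MYB-MuvB complexes act on mitotic genes, for the CCAAT box (CCAAT), bound by NF-Y, and for E2F sites spelled TTTCCCGC or TTTGGCGC. Matches overlapped in 1 promoter of a replication member, Uhrf1, and 1 of a mitosis member, Ube2c, in both cases a CCAAT match with another CCAAT match. The upstream 250 bases are shown for Cdk1 and Cdc20, which have both a CHR and a CCAAT box, as do 13 of the 19 mitosis genes. They are also shown for Mcm5 and Mcm6, the replication members with the smallest p-values in the comparison below. Birc5, the mitosis member with the smallest p-value there, had no CHR, CCAAT or E2F match and is not shown. Capitals mark CHR, CCAAT and E2F matches on either strand, so that a CCAAT box on the opposite strand reads ATTGG. The Cdk1 stretch is chr10:69352913-69353162 on the minus strand, that of Cdc20 chr4:118437344-118437593 on the minus strand, that of Mcm5 chr8:75109259-75109508 on the plus strand and that of Mcm6 chr1:128359706-128359955 on the minus strand.
Cdk1: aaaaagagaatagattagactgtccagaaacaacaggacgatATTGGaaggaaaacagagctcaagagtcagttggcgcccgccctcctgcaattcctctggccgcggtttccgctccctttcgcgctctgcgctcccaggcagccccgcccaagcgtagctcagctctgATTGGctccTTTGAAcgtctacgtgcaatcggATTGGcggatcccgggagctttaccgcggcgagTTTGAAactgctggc
Cdc20: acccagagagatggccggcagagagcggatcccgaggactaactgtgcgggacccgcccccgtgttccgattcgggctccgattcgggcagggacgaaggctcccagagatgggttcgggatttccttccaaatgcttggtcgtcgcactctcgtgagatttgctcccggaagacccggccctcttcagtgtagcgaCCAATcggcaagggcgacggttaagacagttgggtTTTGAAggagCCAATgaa
Mcm5: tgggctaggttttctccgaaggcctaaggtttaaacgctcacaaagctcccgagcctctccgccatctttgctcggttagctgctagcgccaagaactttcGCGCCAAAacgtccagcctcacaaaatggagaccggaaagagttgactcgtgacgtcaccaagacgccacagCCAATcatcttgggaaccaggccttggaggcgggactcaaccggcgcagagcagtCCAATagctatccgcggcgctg
Mcm6: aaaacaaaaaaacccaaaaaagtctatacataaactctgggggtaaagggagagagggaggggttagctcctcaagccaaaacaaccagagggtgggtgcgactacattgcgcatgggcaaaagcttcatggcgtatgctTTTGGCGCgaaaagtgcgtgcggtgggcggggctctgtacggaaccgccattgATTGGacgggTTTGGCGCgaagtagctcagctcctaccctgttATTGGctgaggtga

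A CHR was found for 13 of the 19 mitosis genes (68.4%) and 1 of the 15 replication genes (6.67%), against 20.2% of the 27025 genes in the table. Each of those 13 mitosis genes also had a CCAAT box, a combination found in 7.97% of all genes. The CCAAT box itself was common in both lists, in 84.2% of the mitosis and 60% of the replication genes, against 41.1% of all genes. The Cdc20 window has its CHR 18 bases before the start, and the Cdk1 window has CHRs 71 and 15 bases before it. E2F sites in the spellings searched were found for 7 of the 15 replication genes (46.7%), against 1.80% of all genes. These 7 were Cdc6, Cdt1, Hells, Mcm3, Mcm5, Mcm6 and Mcm7. Such sites were found for 0 of the 19 mitosis genes. Other spellings were not searched, so the 0 holds for these spellings only. Among genes outside the list, a CHR was found for 35 of 49 further mitosis genes (71.4%) and 8 of 38 further replication genes (21.1%). E2F sites were found for 6 (12.2%) and 9 (23.7%) of them, and CCAAT boxes for 67.3% and 60.5%. A CHR together with a CCAAT box was found for 26 of the 49 (53.1%) and 4 of the 38 (10.5%). Not every further mitosis gene with a CHR thus had a CCAAT box. These matches describe letters in a short window and are not binding sites measured here.

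**Figure D1:**
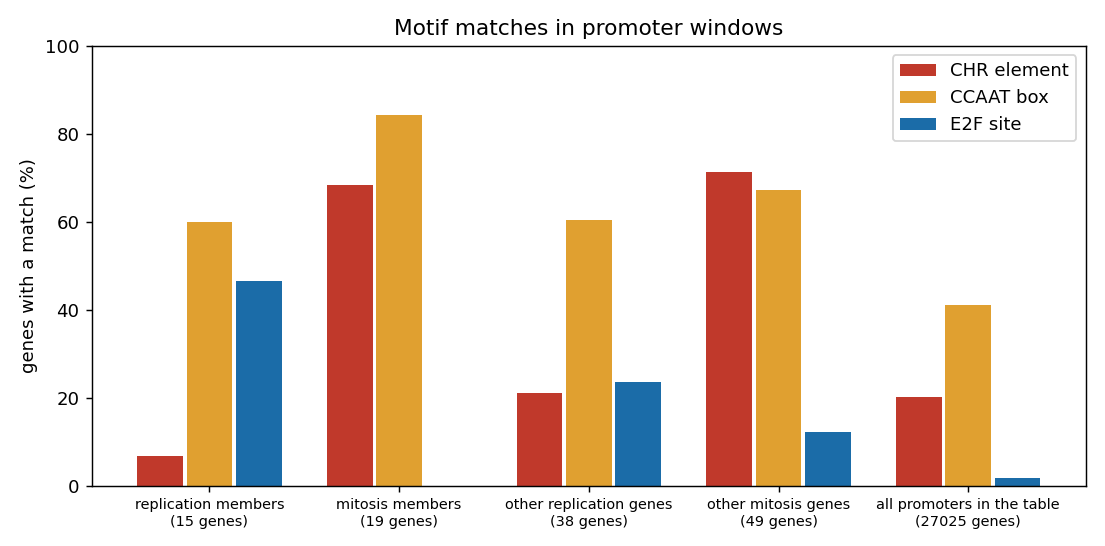
Share of genes, in percent, with at least 1 match to each of 3 motifs in the promoter window, for each gene list and for all genes of the promoter table. CHR matches stand at 68.4% and 71.4% in the mitosis lists, and E2F matches at 46.7% in the replication members against 1.80% of all genes.

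No member was called at an adjusted p below 0.05. edgeR called 0 of 47 in either direction, where it called 3.44% of all 13563 tested genes, 2.37% lower and 1.07% higher. At an unadjusted p below 0.05, 15 members were lower, 8 of replication, 5 of mitosis and 2 of the regulators, and 0 were higher, against 16.1% and 11.3% of all genes. DESeq2 called 6 members lower, where it called 10.2% of all genes lower: Mcm5, Mcm6, Cdk1, Birc5, Ccnb2 and Ccne2. limma voom with quality weights called 29 members lower, where it called 17.8% of all genes. It weighted Cyr61 KO replicates 1, 2 and 3 at 0.477, 2.72 and 0.840, and Control replicates 1, 2 and 3 at 3.13, 0.181 and 1.63. Neither DESeq2 nor voom called a member higher, where they called 6.54% and 15.3% of all genes higher. edgeR called Mcm5 alone without the low-count filter, where 3.72% of all genes were lower and 1.55% higher. It called 0 members with DESeq2's size factors, with library totals, at a CPM of 1 or more in 3 libraries, on unstranded counts and with the replicate number as a block. In those 5 fits 2.34%, 0.17%, 2.46%, 2.35% and 3.47% of all genes were called lower, and 1.16%, 0.199%, 1.14%, 1.06% and 1.19% higher. The fold changes nevertheless leaned to 1 side: 42 of 47 were negative, against 51.6% of all genes, and the median was -1.08 for the members and -0.027 for all genes. In 14 members all 3 Cyr61 KO libraries lay below all 3 Control libraries, against 17.9% of all genes, and in 0 all lay above, against 17.3%.

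**Figure D2:**
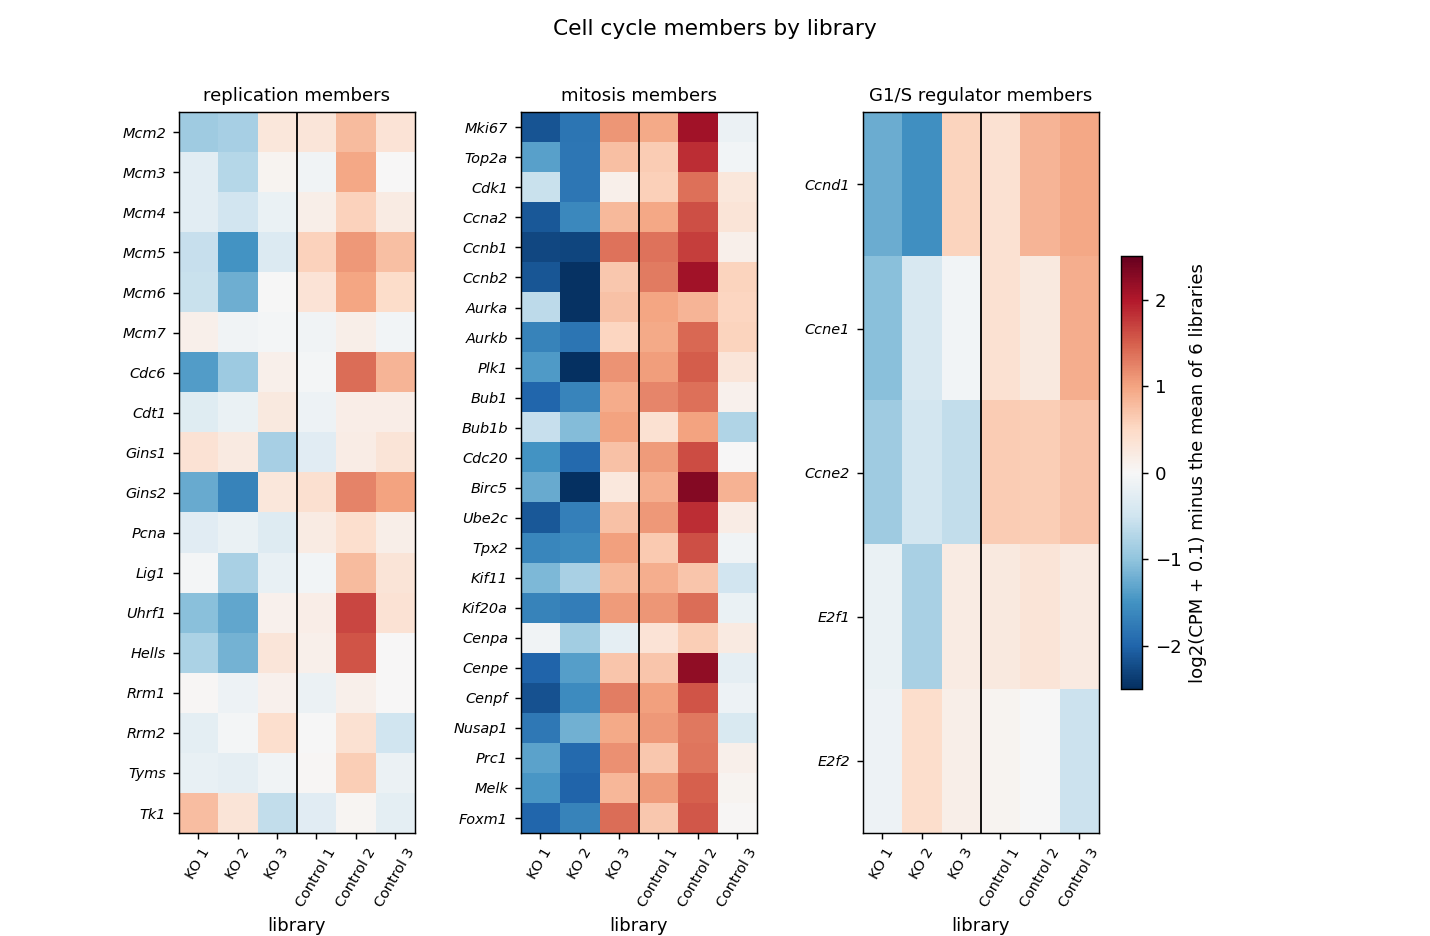
Each row is a member and each column a library, with colour giving log2(CPM + 0.1) minus the row's mean over the 6 libraries. Cyr61 KO replicates 1 and 2 are low over the mitosis rows, while Cyr61 KO replicate 3 lies within or above the Control range in 20 of the 24.

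Among replication genes, the subunits of the MCM2-7 helicase differed among themselves. Mcm5, on chromosome 8 from 75109569 to 75128439 (GRCm38 coordinates from GENCODE M21), had 3.18, 1.63 and 3.78 CPM in Cyr61 KO replicates 1, 2 and 3, against 7.22, 10.3 and 8.11 CPM in Control replicates 1, 2 and 3. The groups did not overlap, and it had the smallest p of all members (log2 fold change -1.57 ± 0.36, edgeR adjusted p = 0.0521). It passed without Cyr61 KO replicate 3 (edgeR adjusted p = 0.0406) and, without the low-count filter, at 0.0317. Mcm6, on chromosome 1 from 128331590 to 128359664, averaged 8.19 ± 3.34 CPM in Cyr61 KO and 18.2 ± 4.53 CPM in Control (SD, n = 3 each), at 7.96, 4.97 and 11.6 against 14.9, 23.3 and 16.2 CPM. Its libraries did not overlap either (-1.15 ± 0.33, edgeR adjusted p = 0.0825). Mcm2 and Mcm4 also had no overlap, at log2 fold changes of -0.89 and -0.63. Mcm3 was at 6.74, 4.90 and 8.47 CPM in Cyr61 KO, against 7.64, 16.0 and 8.14 CPM in Control, so that its range in Control rested on replicate 2. Mcm7, the remaining subunit, was at 22.7, 19.5 and 20.0 CPM in Cyr61 KO and at 19.4, 23.0 and 19.6 CPM in Control. Its means were 20.7 ± 1.69 and 20.7 ± 2.02 CPM (SD, n = 3 each), and its fold change of 0.0056 ± 0.19 was negative under 2 of 8 other settings and without 2 of the libraries.

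The loading factors and fork proteins varied as well. Cdc6 and Cdt1 load the helicase onto origins, and Gins1 and Gins2 are subunits of the GINS complex that activates it. Gins2 was at 0.505, 0.355 and 1.65 CPM in Cyr61 KO, against 1.83, 3.34 and 2.82 CPM in Control (-1.65 ± 0.62, edgeR adjusted p = 0.133), whereas Gins1 was at 4.69, 4.26 and 1.99 CPM against 2.98, 4.13 and 4.58 CPM (-0.10 ± 0.40). These 2 partners thus differed in order across the Cyr61 KO libraries, with replicate 3 highest for Gins2 and lowest for Gins1. Cdc6 had a fold change of -1.65 from low levels, 0.149 to 0.617 CPM in Cyr61 KO and 0.534 to 1.62 CPM in Control, and Cdt1 one of -0.14. Pcna, the sliding clamp, had a narrow spread and no overlap: 29.6, 31.9 and 28.6 CPM in Cyr61 KO, against 41.1, 48.2 and 39.5 CPM in Control (-0.52 ± 0.18, edgeR adjusted p = 0.123). Lig1, the ligase of Okazaki fragments, was at 7.58, 4.40 and 6.87 CPM in Cyr61 KO and 7.44, 13.6 and 9.84 CPM in Control (-0.71 ± 0.32), with an overlap at Control replicate 1. Uhrf1 and Hells, which maintain DNA methylation and chromatin at the fork, had fold changes of -1.57 and -1.24. Reads of Pcna, Tyms and Ccnb1 are uncertain to the extent that annotated pseudogene copies share their sequence.

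Of the nucleotide supply genes, Rrm1, Rrm2 and Tk1 had positive fold changes and Tyms a negative one, and 0 of these 4 passed the test. Rrm1, the large subunit of ribonucleotide reductase, was at 15.1, 13.4 and 15.9 CPM in Cyr61 KO, against 13.3, 16.0 and 14.8 CPM in Control (0.014 ± 0.20, edgeR adjusted p = 0.969). Rrm2, its S-phase subunit, was at 7.13, 8.19 and 11.5 CPM against 8.43, 11.2 and 6.003 CPM (0.067 ± 0.31). Both ranges lay within or across each other, and the sign of these 2 fold changes turned with library-total scaling. Tk1, the cytosolic thymidine kinase, had the highest fold change of all members, 0.43 ± 0.34 (edgeR adjusted p = 0.429). It had 20.0, 14.7 and 7.60 CPM in Cyr61 KO replicates 1, 2 and 3, against 9.55, 12.0 and 9.78 CPM in Control, so that Cyr61 KO held both its highest and its lowest library. Tyms, the thymidylate synthase, had a fold change of -0.38.

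Mitosis genes showed a larger and less even difference. All 24 had negative fold changes, from -2.37 to -0.31, but 20 of them overlapped between the groups, and 4 did not, Cdk1, Aurkb, Birc5 and Cenpa (16.7%, against 17.9% of all genes). Mki67, the gene of the proliferation marker Ki-67, had 1.25, 1.60 and 12.9 CPM in Cyr61 KO replicates 1, 2 and 3, against 11.5, 25.7 and 5.38 CPM in Control replicates 1, 2 and 3. Cyr61 KO replicates 1 and 2 were below every Control library, and replicate 3 was above Control replicates 1 and 3. The mean of 5.24 ± 6.61 CPM against 14.2 ± 10.4 CPM (SD, n = 3 each) gave a fold change of -1.43 ± 0.88 (edgeR adjusted p = 0.314). Top2a, the topoisomerase that untangles sister chromatids, had 1.90, 1.35 and 8.47 CPM in Cyr61 KO and 7.84, 18.2 and 4.73 CPM in Control (-1.39 ± 0.72), again with Cyr61 KO replicate 3 alone inside the Control range. This pattern, with Cyr61 KO replicates 1 and 2 below all Controls and replicate 3 not, was found in 19 of 24 mitosis genes, 5 of 18 replication genes and 1 of 5 regulators, and in 7.84% of all tested genes. Cyr61 KO replicate 3 was the highest Cyr61 KO library in 23 of 24 mitosis genes, all but Cenpa, against 39.2% of all genes.

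The cyclins named here had that pattern, and the mitotic kinase gene did not. Cdk1, on chromosome 10 from 69335146 to 69352938, was at 3.77, 1.53 and 6.08 CPM in Cyr61 KO, against 8.54, 14.6 and 6.81 CPM in Control, where replicate 3 of each group came close but did not cross (-1.39 ± 0.50, edgeR adjusted p = 0.122). Ccnb2, a B-type cyclin that partners Cdk1, was at 0.475, 0.355 and 3.90 CPM against 6.07, 10.7 and 3.59 CPM (-2.09 ± 0.85, edgeR adjusted p = 0.158). Ccna2, the cyclin of S phase and G2, was at 0.713, 1.06 and 6.11 CPM in Cyr61 KO and 6.85, 10.8 and 4.33 CPM in Control (-1.47 ± 0.75). In both cyclins Cyr61 KO replicate 3 was above Control replicate 3 and below the other Controls. Cdc20, the activator of the anaphase-promoting complex, was at 2.05, 1.49 and 10.01 CPM against 12.6, 18.7 and 6.03 CPM (-1.45 ± 0.70, edgeR adjusted p = 0.213). Ube2c, the ubiquitin-conjugating enzyme of the same complex, had a fold change of -1.68, and Ccnb1, Plk1 and Foxm1 had ones of -1.26, -1.21 and -0.82.

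Spindle and kinetochore genes gave the extremes of the list. Birc5, the survivin subunit of the chromosomal passenger complex, was at 0.891, 0.177 and 2.75 CPM in Cyr61 KO, against 4.33, 11.4 and 4.21 CPM in Control, the most negative fold change of the 47 and without overlap (-2.37 ± 0.81, edgeR adjusted p = 0.112). Its partner kinase gene Aurkb also had no overlap (-1.67 ± 0.73), but only barely. Cyr61 KO replicate 3 was at 1.878 CPM and Control replicate 3 at 1.887 CPM, while Cyr61 KO replicates 1 and 2 were at 0.327 and 0.284 CPM. Cenpa, the histone H3 variant of centromeres, was at 7.99, 4.58 and 7.29 CPM against 10.7, 13.0 and 9.99 CPM (-0.76 ± 0.28, edgeR adjusted p = 0.128), with Cyr61 KO replicate 3 just under replicate 1. Tpx2, a spindle assembly factor, was at 0.832, 0.851 and 5.80 CPM in Cyr61 KO and 4.47, 8.74 and 2.63 CPM in Control (-1.07 ± 0.78). Kif20a, a kinesin of cytokinesis, was at 1.01, 0.958 and 7.29 CPM against 7.47, 9.23 and 3.03 CPM (-1.08 ± 0.78). In both, Cyr61 KO replicate 3 lay among the Control libraries. Bub1b, a spindle checkpoint kinase gene, was at 1.31, 0.887 and 4.12 CPM in Cyr61 KO and 2.61, 4.10 and 1.14 CPM in Control. It had the smallest difference of the mitosis genes (-0.31 ± 0.66), was the only one in which Cyr61 KO replicate 3 was the highest of all 6 libraries, and changed sign without Control replicate 2 or Cyr61 KO replicate 2.

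**Figure D3:**
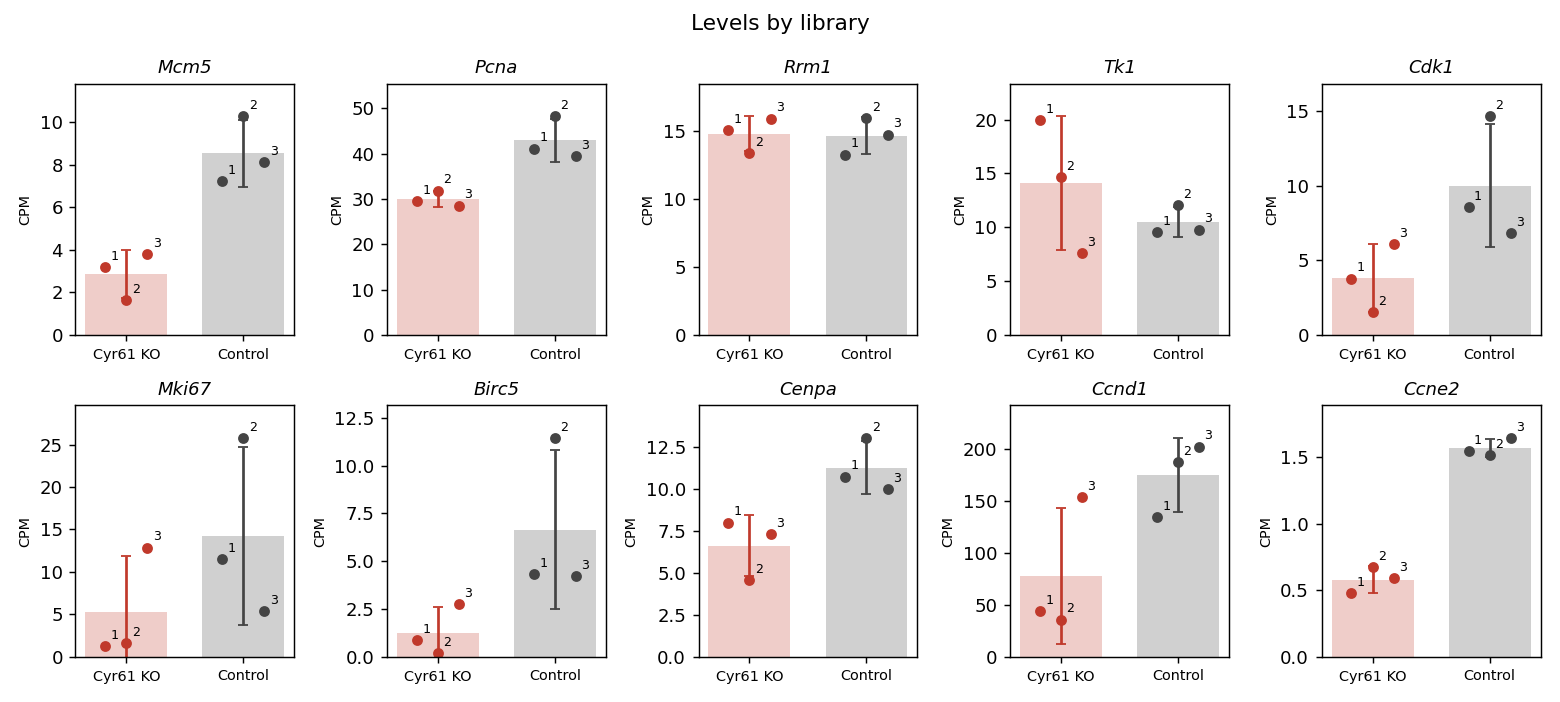
CPM of 10 members in Cyr61 KO (red) and Control (grey) libraries, with bars at the mean, error bars of 1 SD (n = 3 each, cut at 0 where they reach below it) and the replicate number beside each point. Ccne2, Mcm5, Pcna, Cdk1, Birc5 and Cenpa have no overlap between groups, while Mki67 and Ccnd1 have Cyr61 KO replicate 3 inside the Control range.

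The G1/S regulators ranged from an abundant member that split the Cyr61 KO libraries to scarce ones that did not. Ccnd1, the D-type cyclin that answers growth signals, lies on chromosome 7 from 144929931 to 144939925 and had 43.9, 35.9 and 154 CPM in Cyr61 KO replicates 1, 2 and 3, against 135, 188 and 203 CPM in Control replicates 1, 2 and 3. Replicate 3 again parted from the other Cyr61 KO libraries, and the difference did not pass (-1.17 ± 0.52, edgeR adjusted p = 0.184). Per kilobase of annotated exon, Ccnd1 was the highest member in both groups, at 16.5 ± 14.0 CPM per kilobase in Cyr61 KO and 37.2 ± 7.56 in Control (SD, n = 3 each), followed by Pcna at 12.5 ± 0.709 and 17.9 ± 1.94. In Cyr61 KO the spread of Ccnd1 covers the level of Pcna. Ccne2, an E-type cyclin, was at 0.475, 0.674 and 0.589 CPM in Cyr61 KO, against 1.54, 1.51 and 1.64 CPM in Control, a gap wider than the range of either group (-1.43 ± 0.44, edgeR adjusted p = 0.0905). Ccne1, the other E-type cyclin, was at 0.802, 1.31 and 1.68 CPM against 2.33, 2.10 and 3.40 CPM (-1.04 ± 0.44, edgeR adjusted p = 0.167). Both E cyclins thus had Cyr61 KO replicate 3 below the Control range, unlike Ccnd1. E2f1, an activating E2F factor, was at 5.76, 3.62 and 7.40 CPM in Cyr61 KO and 7.61, 8.05 and 7.55 CPM in Control, where replicate 3 of Cyr61 KO missed the Control range by little (-0.47 ± 0.31). E2f2 was at 4.43, 6.63 and 5.35 CPM against 5.11, 4.82 and 3.31 CPM, with overlap (0.31 ± 0.31).

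Set side by side, replication and mitosis genes differed in how far the libraries spread. The median log2 fold change was -0.64 over the 18 replication genes and -1.32 over the 24 mitosis genes. The mean log2 CPM of the replication genes was 2.17, 1.94 and 2.53 in Cyr61 KO replicates 1, 2 and 3, against 2.63, 3.30 and 2.79 in Control replicates 1, 2 and 3, so that each Cyr61 KO library was below each Control library. The mean over all 13563 tested genes had no overlap either, at 3.52, 3.54 and 3.66 in Cyr61 KO and 3.70, 3.83 and 3.67 in Control. That of the mitosis genes was -0.30, -0.56 and 2.15 in Cyr61 KO, against 2.22, 2.85 and 1.39 in Control, so that Cyr61 KO replicate 3 was above Control replicate 3. The SD among Cyr61 KO libraries was 0.30 for replication and 1.49 for mitosis, and among Control libraries 0.35 and 0.73. Mitosis minus replication was -2.46, -2.49 and -0.38 log2 units in Cyr61 KO, against -0.40, -0.46 and -1.40 in Control. Cyr61 KO replicates 1 and 2 thus had relatively few mitotic transcripts for their replication transcripts, Control replicate 3 came next, and the other 3 libraries were within 0.1 log2 unit of each other. The group means of this difference, -1.78 ± 1.21 and -0.75 ± 0.56 (SD, n = 3 each), differed by less than the SD among Cyr61 KO libraries, and no test of lists was made. Summed over genes, mitosis transcripts came to 28.9, 20.8 and 121 CPM in Cyr61 KO and 129, 211 and 76.1 CPM in Control, and replication transcripts to 148, 130 and 151 CPM against 167, 233 and 175 CPM.

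**Figure D4:**
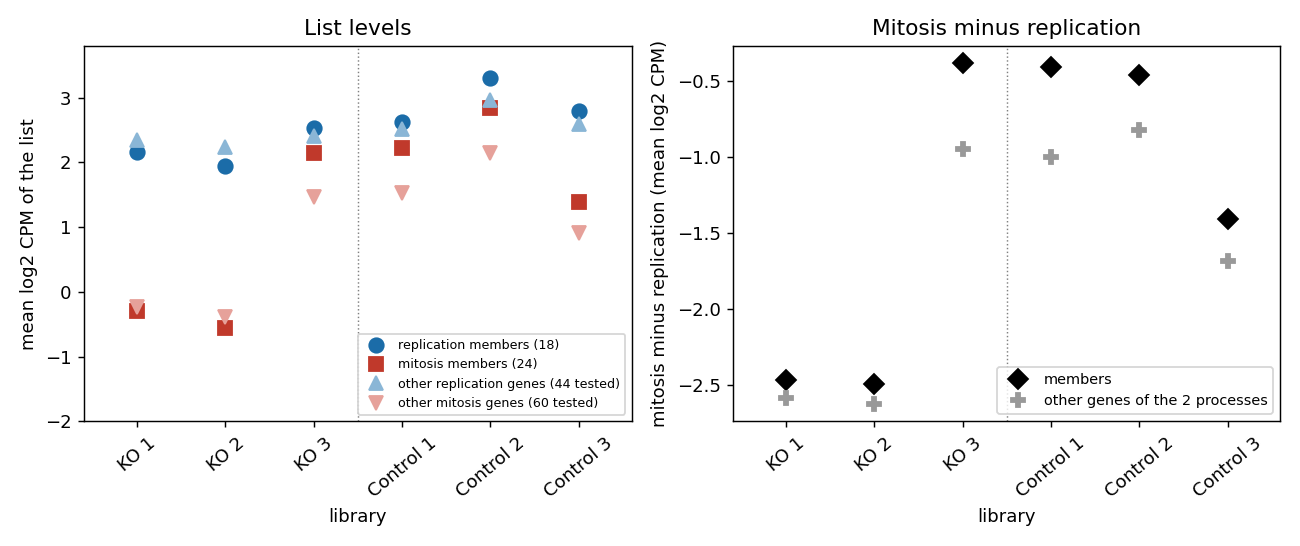
Left, mean log2 CPM of the replication and mitosis members and of further genes of the same processes in each library, and right, the mitosis mean minus the replication mean. The right panel has Cyr61 KO replicates 1 and 2 at -2.46 and -2.49 and Cyr61 KO replicate 3 at -0.38, beside Control replicates at -0.40, -0.46 and -1.40.

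The counts therefore rested on which libraries were kept. Without Cyr61 KO replicate 3 edgeR called 22 members lower, 17 of mitosis, 4 of replication (Mcm2, Mcm5, Mcm6 and Gins2) and Ccnd1, where it then called 4.35% of all genes lower and 1.22% higher. The mitosis median was then -3.01 and the replication median -0.73, with Ccnb2 at -4.00 ± 0.61, Mki67 at -3.30 ± 0.65 (edgeR adjusted p = 0.0285), and Ccnd1 at -2.12 ± 0.33 (edgeR adjusted p = 0.0139). Without Control replicate 2, the library with the highest value in 21 of 24 mitosis genes, 14 of 18 replication genes and 34.9% of all tested genes, edgeR called 0 members (1.22% of all genes lower and 0.923% higher), 5 had an unadjusted p below 0.05, and the medians were -0.80 and -0.41. Leaving out any of the other 4 libraries also gave 0 calls, at mitosis medians of -1.59 to -0.85. Without Cyr61 KO replicate 1 or 2 few genes of any kind were called, 0.0215% and 0.086% of all genes lower and 0.0287% and 0.086% higher. Without Control replicate 1 or 3 it was 0.949% and 5.17% lower and 0.312% and 1.14% higher. The direction of both medians was the same in every one of these 6 settings.

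**Figure D5:**
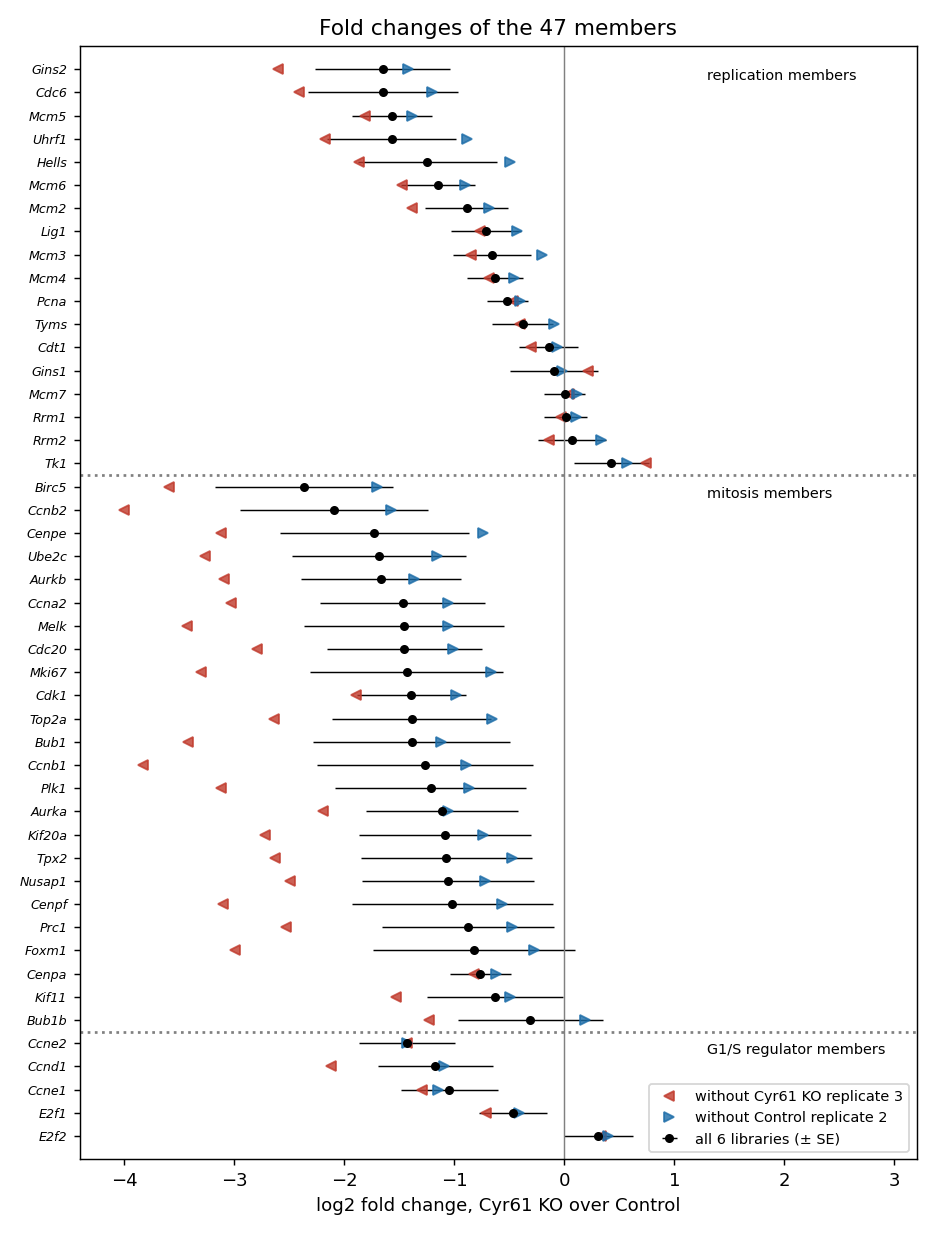
Log2 fold change of each member, Cyr61 KO over Control, with all 6 libraries (black, ± SE) and with either of 2 libraries left out (red and blue triangles). Without Cyr61 KO replicate 3 the mitosis median is -3.01 and without Control replicate 2 it is -0.80, while the replication medians are -0.73 and -0.41.

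Further genes of the same processes were listed by function. Of 44 further replication genes tested, 0 were called in either direction, 8 had no overlap on the lower side (18.2%, near the 17.9% of all genes), and the median was -0.27, with 32 negative. The 1 gene without overlap on the higher side was Orc3, a subunit of the origin recognition complex, at 19.4 to 24.3 CPM in Cyr61 KO and 17.1 to 17.5 CPM in Control (0.33 ± 0.18, edgeR adjusted p = 0.273). Of 60 further mitosis genes 1 was called lower (1.67%, against 2.37% of all genes) and 0 higher, and 9 had no overlap on the lower side (15%, against 17.9%). Their median was -1.09, and 41 (68.3%, against 7.84%) had Cyr61 KO replicates 1 and 2 below all Controls and replicate 3 not. The called gene was Cks1b, a small subunit that binds cyclin-dependent kinases, which fell to 4.10, 2.84 and 3.64 CPM in Cyr61 KO, against 7.36, 12.1 and 10.7 CPM in Control (-1.51 ± 0.30, edgeR adjusted p = 0.0383). Here Cyr61 KO replicate 3 was as low as the others. Ccnf, a cyclin that serves as an F-box protein, had the opposite sign, at 20.0, 15.5 and 15.6 CPM in Cyr61 KO and 9.13, 7.37 and 12.1 CPM in Control (0.84 ± 0.25, edgeR adjusted p = 0.0872).

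The summed levels of cell type markers differed between the groups for some lists and overlapped for others. The summed level of 10 monocyte-derived macrophage markers was 116 to 249 CPM in Cyr61 KO and 457 to 1618 CPM in Control, with 6 of 10 called lower. For 10 T and NK cell markers, of 12 listed, it was 4.22 to 4.51 CPM against 9.22 to 85.5 CPM, with 1 called lower. For 7 cholangiocyte markers it was 80.5 to 157 CPM against 234 to 1367 CPM, with 0 of 7 called. Spp1 counts in both this list and the macrophage list and made up most of the cholangiocyte sum. It was at 61.9 to 126 CPM in Cyr61 KO and 193 to 1113 CPM in Control, highest in Control replicate 2. For 10 stellate cell and myofibroblast markers the sum was 331 to 560 CPM against 825 to 1437 CPM, with 4 called lower. Of these markers 8 were lower without overlap, against 17.9% of all genes, while Lrat (0.09 ± 0.27) and Reln (0.05 ± 0.27) overlapped. In each of these 4 lists Control replicate 2 was the highest library, as it was for most members. In these 4 sums Cyr61 KO replicate 3 lay below every Control library, whereas its summed mitosis transcripts lay above those of Control replicate 3. Kupffer cell markers, the resident macrophage list, had 0 of 10 called. They summed to 465, 290 and 761 CPM in Cyr61 KO replicates 1, 2 and 3, against 747, 663 and 623 CPM in Control. Cyr61 KO replicate 3 was thus the highest library there. The sum hides members that went both ways. Timd4 (1.58 ± 0.39) and Fcna (0.76 ± 0.21) were higher without overlap, against 17.3% of all genes. Clec1b (-0.74 ± 0.27) was lower without overlap, against 17.9%, and the rest overlapped. Endothelial markers summed to 224, 272 and 343 CPM against 183, 308 and 191 CPM (2 of 8 called higher), and hepatocyte markers to 105332 to 131610 CPM against 40753 to 100911 CPM (1 of 10 called higher). The sums were 4.99 to 5.83 against 13.6 to 63.2 CPM for 7 B and plasma cell markers (1 called lower), 2.94 to 7.04 against 16.5 to 68.0 CPM for 7 neutrophil markers (3 called lower), and 5.32 to 7.82 against 9.62 to 41.5 CPM for 8 dendritic cell markers (0 called). For 7 erythroid markers they were 115 to 155 against 78.3 to 136 CPM, with Hba-a1, Hbb-bs and Hbb-bt at 0 in every library, and for 8 pancreas and gut markers 91.3 to 149 against 100.2 to 118 CPM, with Amy2a5 at 0, and 0 were called in either list. No marker of the other lists was at 0 in every library. The part of these cells in the member values was not tested.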

How the data were processed

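Per the labels, RNA from flash-frozen livers was made into directional libraries. The authors deposited raw read counts per gene, 1 table per library, with unstranded counts and counts for either strand. Per the submitters' processing notes, the tools were Trimmomatic 0.38 and STAR 2.6.1a, with hg38 and mm10 as builds. The annotation release is not given in the sources used here. Reverse-strand counts were used, since the opposite strand held 0.928% to 1.35% of stranded counts. Unmapped, multimapping, ambiguous and non-gene reads were left out: 4.27% to 25.7% of reads lay outside genes and 3.74% to 19.4% mapped to several places.

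The 6 libraries were compared in edgeR 4.0.16 (R 4.3.3) with the two-sided quasi-likelihood test, with filterByExpr (minimum count 10, minimum total 15), TMM scaling, a group term only and Benjamini-Hochberg adjustment over 13563 genes. An adjusted p below 0.05 was called. Mean log2 CPM used a prior count of 2. Standard errors were taken as the size of the log2 fold change divided by the root of its F statistic. The fit was tested on simulated data. Alternatives were DESeq2 1.42.0, DESeq2's size factors within edgeR, limma 3.58.1 voom with quality weights, library totals, omitting the filter on low counts, keeping genes that reach 1 CPM in 3 libraries, unstranded counts, a block for the replicate number, and leaving out each library.

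The members, lists and markers were chosen with earlier results of these data known. Values in every library are given for the 5 G1/S genes, the 8 replication and 10 mitosis genes with the highest mean CPM, the 2 smallest p and the highest fold change of each list. Gins1 and Gins2 were added after their values were seen. Further genes are named where called or without overlap against their list's direction. No pair of libraries within a group agreed within sampling noise (chi-square per degree of freedom of 57.7 or more).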

Additional observations from a re-analysis of the deposited data

How the results depend on the processing

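Members called lower numbered 0 by edgeR, 6 by DESeq2 (2 of replication and 3 of mitosis), 29 by voom with quality weights (7 and 18) and 1 without the low-count filter (1 and 0). They numbered 0 to 22 when a library was left out (0 to 4 and 0 to 17), all 22 without Cyr61 KO replicate 3. Members called higher numbered 0 in every setting. Over all genes the count was 467, or 2273 by DESeq2, 4483 by voom, 944 without the filter, 50 with library totals, and 7 to 878 without a library. With library totals 27 genes were higher and 23 lower, against 145 and 322 with TMM, and the median of all genes was -0.30. The mitosis median ran from -3.01 to -0.80 and mitosis minus replication from -2.28 to -0.28 without a library, against -1.32 and -0.68. The difference of the medians was also -1.36 with voom and -1.35 with the replicate block, moves above the SD of 0.56 among Control libraries and below that of 1.21 among Cyr61 KO libraries. Signs turned for Mcm7 (-0.30 with library totals, -0.039 when genes had to reach 1 CPM in 3 libraries, -0.051 to 0.12 without a library), Rrm1 (-0.27, -0.030, and -0.029 to 0.11 under the same settings), Rrm2 (-0.25 with library totals, -0.14 to 0.33 without a library) and Bub1b (-1.23 to 0.19 without a library). The cause was not tested. Of 350 combinations of 25 named genes and 14 settings, 302 kept sign and side of the threshold, 35 passed it and 13 turned. With the replicate number as a block 0 members and 633 genes were called, at a mitosis median of -1.96. Libraries with the same number deviated from their group means with correlations of -0.06, -0.24 and -0.45, and 0 of 3 correlated best with its own number. With 3 libraries per group the deviations depend on each other, so these values cannot decide whether the numbers pair the libraries. Depth limits Melk, Cdc6, Bub1, Birc5, Plk1, Aurkb, Ccnb1 and Cenpf, each with fewer than 10 reads in at least 1 Cyr61 KO library.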

Other observations

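Inhibitors and further regulators of the cycle were also taken by function. Cyr61 KO replicates 1 and 2 lay below all Controls, and replicate 3 did not, in 15.8% of inhibitors and 12.5% of further G1/S genes. The same held in 79.2% of the mitosis members and 7.84% of all tested genes. Of 19 inhibitors 1 was called lower and 0 higher, where 2.37% and 1.07% of all genes were, at a median of -0.45. The called gene was Btg2, an anti-proliferative gene of the immediate early and p53 responses, which fell to 22.7, 9.36 and 17.2 CPM in Cyr61 KO, against 49.998, 50.5 and 45.3 CPM in Control (-1.56 ± 0.31, edgeR adjusted p = 0.0371). Cdkn1a, which encodes the kinase inhibitor p21, was at 30.6, 7.27 and 67.5 CPM in Cyr61 KO and 53.3, 39.3 and 64.2 CPM in Control (-0.57 ± 0.61), so that Cyr61 KO replicates 1 and 2 were low for it as for the mitosis genes. It was chosen after its values were seen. Rbl2, the pocket protein p130 of quiescent cells, was at 39.3, 56.8 and 45.4 CPM in Cyr61 KO, against 31.5, 19.6 and 28.1 CPM in Control, without overlap (0.84 ± 0.24, edgeR adjusted p = 0.0830). Of 24 further G1/S genes tested 0 were called, at a median of 0.06, where 4 had an unadjusted p below 0.05 on the lower side (16.7%, against 16.1% of all genes) and 1 on the higher (4.17%, against 11.3%). In 2 of the 24 all Cyr61 KO libraries lay below all Control libraries (8.33%, against 17.9% of all genes). Cdk4, the kinase that D cyclins activate, had 38.9, 34.0 and 31.9 CPM in Cyr61 KO, against 50.2, 52.6 and 54.5 CPM in Control (-0.59 ± 0.18, edgeR adjusted p = 0.0938). Mybl2, the B-MYB factor of late S phase and G2, had 0.208, 0.142 and 0.196 CPM against 0.674, 1.20 and 0.371 CPM (-2.01 ± 0.64, edgeR adjusted p = 0.0970). Depth limits Mybl2 too, since 3 reads amounted to 0.0891, 0.106 and 0.0841 CPM in Cyr61 KO replicates 1, 2 and 3.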
